A study of Mus musculus with 2 samples.

Results

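The genes described here are the structural and regulatory genes of motile cilia, taken by symbol: every gene whose symbol starts with Cfap, Dnah, Dnai, Rsph or Tekt followed by a digit, together with Foxj1. The rule gave 63 of the 32285 genes measured. They are Foxj1, 33 cilia and flagella associated protein (Cfap) genes, 5 outer arm and 10 inner arm dynein heavy chains, 8 radial spoke (Rsph) genes, 5 tektins and the antisense RNA Dnah2os. No symbol has Dnai followed by a digit, and the axonemal intermediate chains are listed as Dnaic1 and Dnaic2.

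A motile cilium is built on an axoneme of microtubule doublets around a central pair. Dynein arms on the doublets are its motors: outer arms power the beat, inner arms shape it, radial spokes pass signals from the central pair to the arms, and tektins and many Cfap proteins stabilise the doublets. Foxj1 is the transcription factor that drives motile ciliogenesis, together with RFX factors, which bind the X-box motif at cilia genes. In the brain, ependymal cells and choroid plexus epithelium carry such cilia, whereas neural progenitors and neurons carry a single primary cilium without dynein arms.

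Single cells of mouse cerebellum at E16.5 were sequenced from the 3' ends of their transcripts, and unique molecular identifiers (UMIs) counted the captured molecules. The control library came from cre-negative embryos, and the labels do not say which floxed alleles these carried. The mutant library came from embryos with Blbp-cre, a heterozygous Ctnnb1(ex3)fl/wt allele and Smarca4fl/fl, which had cerebellar lesions. Each library was a pool of 3 samples of 1 genotype. As background, Blbp-cre recombines in radial glia and the cells that derive from them, loss of Ctnnb1 exon 3 makes beta-catenin stable and so turns on Wnt signalling, and Smarca4 is the motor subunit of BAF chromatin remodelling complexes.

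With 1 library per genotype no test was possible, and all intervals are 95% intervals for counting error only. Levels are given in CPM, the usual scale on which a gene's UMIs are divided by all UMIs of the cells named, and a difference between libraries was called at 2-fold for genes with at least 50 UMIs over both libraries in those cells. UMIs from 3' ends are not scaled by transcript length. Levels of single genes are compared within a gene and not between genes. After filtering there were 15882 control cells (median depth 9998 UMIs) and 15860 mutant cells (9718 UMIs). The libraries shared 123 barcodes. Haemoglobin took 7.57% and 8.76% of the kept UMIs. Cells were assigned to cell types by marker scores that used no gene of the set. Atoh1, the defining transcription factor of cerebellar granule cell precursors, was among the 10 leading genes of that group in each library. This is no independent check, because the group was selected by such markers. Of its 8 markers, only 3 (control) and 4 (mutant) were 2-fold higher there than in other cells, so this group is loosely defined.

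RefSeq promoters (GRCm38.p6) were at hand for 50 of the 63 genes and are shown because RFX factors and Foxj1 are known to act through motifs there. The X-box was searched as GTTNCC, 2 free bases and the reverse complement GGNAAC, 1 arm of it as GTTGCC, and the forkhead motif as GTAAACA or ACAAACA, on both strands from 250 bases before to 50 bases after the start. An X-box match may contain the arm. The arm was found for 36% of the genes, against 14.1% of the 27025 genes with a promoter, the full X-box for 2% (Cfap298 only) against 0.529%, and a forkhead motif for 12% against 11.2%. The 250 bases before the start follow, 5' to 3' on the strand of the gene, with matches to these motifs in capitals. Cfap298 holds the X-box, with its first base at position -188, Cfap161 holds 3 arms, and the other 4 were at least 2-fold higher in the mutant library. Tekt1 has a further promoter, chr11:72361297-72361546, which holds no match and is not printed.
Cfap298, chr16:90934850-90935099, minus strand: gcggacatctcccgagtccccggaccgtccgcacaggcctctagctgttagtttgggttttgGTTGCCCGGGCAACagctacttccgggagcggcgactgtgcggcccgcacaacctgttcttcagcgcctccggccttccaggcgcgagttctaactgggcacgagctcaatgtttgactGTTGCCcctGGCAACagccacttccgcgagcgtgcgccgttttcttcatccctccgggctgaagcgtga
Cfap161, chr7:83794840-83795089, minus strand: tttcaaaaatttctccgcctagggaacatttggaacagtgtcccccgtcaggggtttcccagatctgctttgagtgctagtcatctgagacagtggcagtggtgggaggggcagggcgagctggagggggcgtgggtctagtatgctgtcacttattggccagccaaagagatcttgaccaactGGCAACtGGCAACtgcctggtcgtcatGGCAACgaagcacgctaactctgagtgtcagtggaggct
Tekt1, chr11:72361883-72362132, minus strand: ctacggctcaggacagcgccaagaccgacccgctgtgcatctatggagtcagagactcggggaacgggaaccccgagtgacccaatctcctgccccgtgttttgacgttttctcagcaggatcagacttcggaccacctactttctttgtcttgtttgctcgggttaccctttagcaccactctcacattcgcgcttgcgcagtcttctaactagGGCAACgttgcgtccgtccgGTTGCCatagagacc
Cfap300, chr9:8042876-8043125, minus strand: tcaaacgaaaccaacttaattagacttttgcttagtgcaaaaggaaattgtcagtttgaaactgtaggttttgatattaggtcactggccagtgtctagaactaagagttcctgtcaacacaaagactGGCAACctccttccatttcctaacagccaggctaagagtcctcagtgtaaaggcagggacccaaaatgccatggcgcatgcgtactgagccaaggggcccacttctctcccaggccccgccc
Dnah7b, chr1:46066603-46066852, plus strand: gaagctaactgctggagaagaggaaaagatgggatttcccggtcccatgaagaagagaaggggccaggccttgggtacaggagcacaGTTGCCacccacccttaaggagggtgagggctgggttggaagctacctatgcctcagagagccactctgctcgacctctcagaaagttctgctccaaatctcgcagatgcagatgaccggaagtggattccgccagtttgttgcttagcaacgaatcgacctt
Dnah7c, chr1:46425268-46425517, plus strand: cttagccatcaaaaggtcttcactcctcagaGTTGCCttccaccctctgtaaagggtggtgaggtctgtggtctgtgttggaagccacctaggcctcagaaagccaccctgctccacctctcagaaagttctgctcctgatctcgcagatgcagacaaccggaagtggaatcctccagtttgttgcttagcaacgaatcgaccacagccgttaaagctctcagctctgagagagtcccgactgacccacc
These matches describe letters and are not shown binding sites. The arm was found for 34.3% of the genes enriched in ciliated cells, as defined below, and for 40% of the other members. Dnah7b and Dnah7c share an unbroken run of 29 bases before the start, ccagtttgttgcttagcaacgaatcgacc, and Dnah7a shares 33 bases with Dnah7b. RefSeq starts need not equal the GENCODE gene starts given below.

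The summed level of the set differed between cell types. It was highest in the ciliated or ependymal group, gated on 15 other genes of ciliated cells such as Tmem212, Meig1 and Dynlrb2, which held 122 control cells (0.768%) and 114 mutant cells (0.719%). The summed level there was 6478 CPM (6343 to 6616) for control cells and 5683 CPM (5559 to 5809) for mutant cells. Choroid plexus epithelium came next, at 2403 and 2390 CPM. The 18 control and 11 mutant cells gated as roof plate or rhombic lip had 1083 CPM (903 to 1289) and 934 CPM (772 to 1120), and neural progenitors or astroglia had 861 and 812 CPM. Erythroid cells and microglia should lack motile cilia, and had 125 and 131 CPM in the former and 219 and 230.4 CPM in the latter. Haemoglobin takes at least 50% of the UMIs of an erythroid cell by the gate, so erythroid CPM values and shares of every other gene, here and below, are lowered by it and understate the background. The ciliated group held 9.31% and 7.11% of all UMIs of the set, and progenitors 22.0% and 17.2%.

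**Figure D1:**
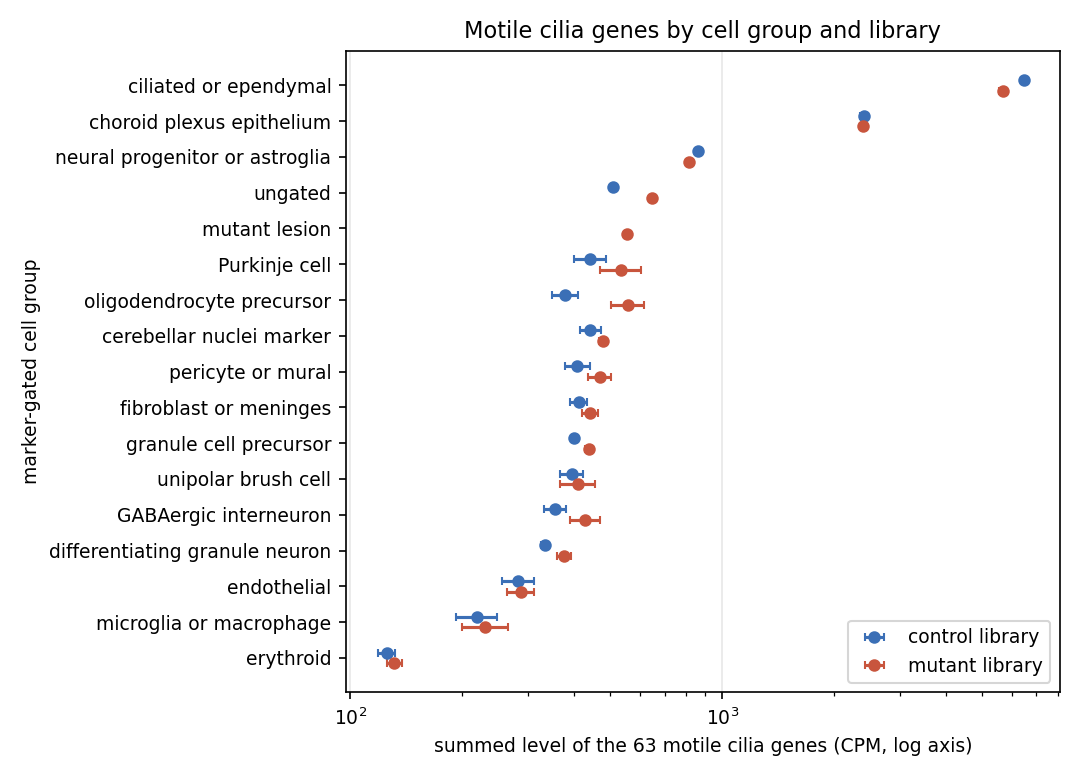
Summed level of the 63 motile cilia genes in CPM (horizontal log axis) in each marker-gated group of cells (vertical axis), for the control and the mutant library, with exact 95% Poisson intervals for counting error. The ciliated group lies at 6478 and 5683 CPM, choroid plexus at 2403 and 2390 CPM and erythroid cells at 125 and 131 CPM.

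Most members were enriched in ciliated-gated cells. Of the 60 members with at least 50 UMIs, 51 were at least 4-fold higher there than in all other cells of the control library, against 9.15% of all genes, and 48 in the mutant library, against 6.87%. In both libraries 46 passed, against 4.71%. The gate rests on genes known from motile cilia, so it selects cells in which such genes are high. The passing members had a median fold of 29.85 (control) and 17.6 (mutant). By role, 27 of 33 Cfap genes, 8 of 10 inner arm chains, 3 of 5 outer arm chains, 5 of 8 spoke genes, 2 of 5 tektins and Foxj1 passed in both libraries. The 3 members under 50 UMIs were Cfap97d1, Rsph6a and Tekt3.

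**Figure D2:**
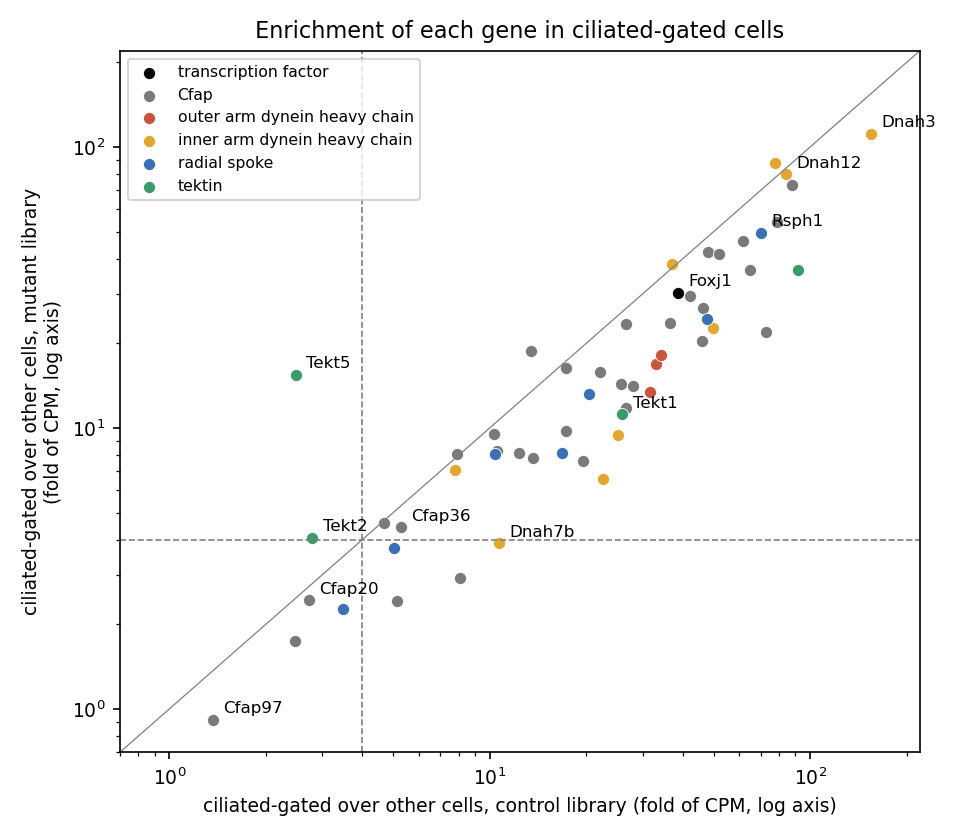
Fold of CPM in ciliated-gated cells over all other cells, control library on the horizontal and mutant library on the vertical log axis, for 56 motile cilia genes coloured by role. Dnah8, Dnah14, Dnah17 and Dnah2os had a fold of 0 in at least 1 library, which a log axis cannot show. Dnah3 lies highest at 155-fold and 111.5-fold, Foxj1 at 38.6-fold and 30.3-fold and Cfap97 lowest of the named genes drawn at 1.37-fold and 0.916-fold.

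Foxj1 (chr11:116330704-116335399, minus strand) was at 242 and 244 CPM in ciliated-gated cells of the control and mutant libraries, 38.6-fold and 30.3-fold above other cells. It was at 101 and 94.8 CPM in choroid plexus, 16.2 and 14.5 CPM in progenitors and 1.52 and 1.62 CPM in erythroid cells. Among these groups this is the order of the summed set, in each library. Roof plate or rhombic lip cells, with 3 and 1 Foxj1 UMIs, and microglia, with 1 and 2, had too few to be ranked.

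The inner arm heavy chains included the highest fold among the members tested. Dnah3 (chr7:119922671-120095280, minus strand) was enriched 155-fold and 111.5-fold, Dnah12 (chr14:26693274-26891703, plus strand) 84.3-fold and 79.9-fold and Dnah10 77.4-fold and 87.5-fold, the first numbers being those of the control library. Of the Dnah12 UMIs, 39.5% and 39.55% came from the few ciliated-gated cells. Dnah14 (chr1:181576559-181815774, plus strand), also classed as inner arm, had no UMI in them in either library, and was seen in progenitors with 38 control and 10 mutant UMIs.

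Outer arm chains split by type. Dnah5, Dnah9 and Dnah11, the chains of airway and ependymal cilia, were enriched 31.7-fold and 13.5-fold, 32.95-fold and 16.9-fold and 34.2-fold and 18.2-fold. Dnah8 and Dnah17, known from sperm flagella, were not: Dnah8 had 1 and 0 UMIs and Dnah17 0 and 1 UMIs in ciliated-gated cells. Dnah8 was instead at 5.21 and 3.225 CPM in progenitors and 8.61 and 9.84 CPM in oligodendrocyte precursors, the latter from 13 and 7 UMIs. The intermediate chains, Dnaic1 and Dnaic2, are outside the set and were enriched 27.1-fold and 19.4-fold in the control library.

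Spoke head genes followed the ciliated pattern, with Rsph1 enriched 70.2-fold and 49.55-fold and Rsph4a 47.65-fold and 24.3-fold. Rsph9, another spoke head gene, had 10.4-fold and 8.06-fold, and was also at 48.7 and 40.6 CPM in progenitors against 3.84 and 5.155 CPM in erythroid cells. Rsph3a and Rsph3b are near-identical copies whose reads the counting may have split, and neither passed in both libraries. Among tektins, Tekt4 was enriched 91.7-fold and 36.5-fold and Tekt1 25.9-fold and 11.2-fold, while Tekt2 had 2.80-fold and 4.07-fold. In progenitors Tekt2 and Tekt5 were at 3.61 and 1.80 CPM and 3.95 and 1.885 CPM.

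The Cfap genes ranged from specific to ubiquitous. Cfap161 and Cfap65, at 87.5-fold and 73.1-fold and 78.8-fold and 53.9-fold, had the highest folds of the Cfap genes, and Cfap126 (Flattop) was at 407 and 403 CPM in ciliated-gated and 282 and 255 CPM in choroid plexus cells. Cfap69 was at 174 and 143 CPM and 55.6 and 73.6 CPM in the same groups. At the other end Cfap20, a conserved axonemal gene, was enriched only 2.72-fold and 2.44-fold: it was at 121 and 122.5 CPM in progenitors, 94 and 92.2 CPM in granule cell precursors and 127.5 and 142 CPM in fibroblasts or meninges, against 20.2 and 20.5 CPM in erythroid cells. Cfap410 and Cfap97 had folds of 2.47-fold and 1.745-fold and of 1.37-fold and 0.916-fold. Cfap36 and Cfap298 passed but were broad too, at 73.3 and 80.6 CPM and 41.8 and 40.8 CPM in granule cell precursors. Cfap97 was higher in cells gated on cerebellar nuclei markers, at 48.0 and 44.2 CPM, than in ciliated-gated cells, at 33.55 and 29.1 CPM.

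A few members had a second place of expression. Cfap77, a doublet protein gene, was at 33.9 and 38.9 CPM in granule cell precursors and 5.32 and 3.30 CPM in differentiating granule neurons, so it was lower in the more mature cells in each library. The cells gated on cerebellar nuclei markers, led by Lhx2, Lhx9 and Tfap2d, had it at 37.65 and 25.2 CPM. Cfap100 was at 37.9 and 47.5 CPM in progenitors and 1.20 and 1.88 CPM in granule cell precursors. Dnah2os was at 8.37 and 13.9 CPM in endothelial cells, from 12 and 28 UMIs. The strand setting of the counting is unknown here, and 33 of the 63 genes overlap a measured gene on the opposite strand and 4 overlap one on the same strand, so Dnah2os and Dnah2 may share reads.

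The ciliated group held 2 kinds of cells. In a clustering without the 63 genes, 29 control and 73 mutant cells lay in the choroid plexus cluster (cluster 19), and 92 and 39 in progenitor clusters, mainly cluster 27. Ttr, the transthyretin gene of choroid plexus, was at 178791 and 224573 CPM in the first kind and at 186 and 363 CPM in the second, while Sox2, a progenitor and ependymal gene, was at 80.55 and 67.1 CPM and at 446 and 481 CPM. Of the cells near the score cut, 71 control and 89 mutant ones, 27 and 36 were inside the group, so the group has no sharp edge.

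The balance of these kinds differed between the libraries. The progenitor kind was 0.579% of the control library and 0.246% of the mutant one, a ratio of 0.4245 (0.284 to 0.624). Per progenitor-gated cell the ratio was 0.4695 (0.314 to 0.690), and 0.577 (0.3865 to 0.848) per cell that was not lesion-gated. Of the mutant progenitor-gated cells, 35.3% lay in cluster 12, which was named for the lesion. The ratio per progenitor-gated cell counts these cells in its denominator, and a ratio without them was not computed. The choroid plexus kind made up 0.183% and 0.460%, a ratio of 2.52 (1.62 to 4.02), and 3.43 (2.20 to 5.47) per cell that was not lesion-gated. The choroid plexus group as a whole was also larger, 140 control and 285 mutant cells, and per choroid plexus-gated cell the ratio was 1.24 (0.794 to 1.97), an interval that includes 1. With 1 pool per genotype, genotype and pool cannot be told apart.

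Scaled to all UMIs, the kinds had similar Foxj1 levels, and a share of the set near that of all genes differed between them. Foxj1 was at 239 and 239.9 CPM in the choroid plexus kind and 251 and 256 CPM in the progenitor kind. Of 49 members with at least 50 UMIs, 5 were at least 4-fold higher in the progenitor kind in both libraries, a share near the 7.17% of all genes, and none was 4-fold lower, against 1.75%. The 5 were Cfap221, Dnah3, Dnah5, Dnah9 and Dnah12. Over the 49 the median fold was 1.795 and 2.12, against 1.38 and 1.48 over all genes. The UMIs of Ttr lower the CPM of other genes in the choroid plexus kind and so raise these folds. Scaled without Ttr, the summed level there was 5909 and 5818 CPM, against 4852 and 4511 CPM with it. In the progenitor kind it was 7309 and 8721 CPM, against 7308 and 8718 CPM. Levels and folds of single genes, here and in the next paragraph, were not rescaled.

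**Figure D3:**
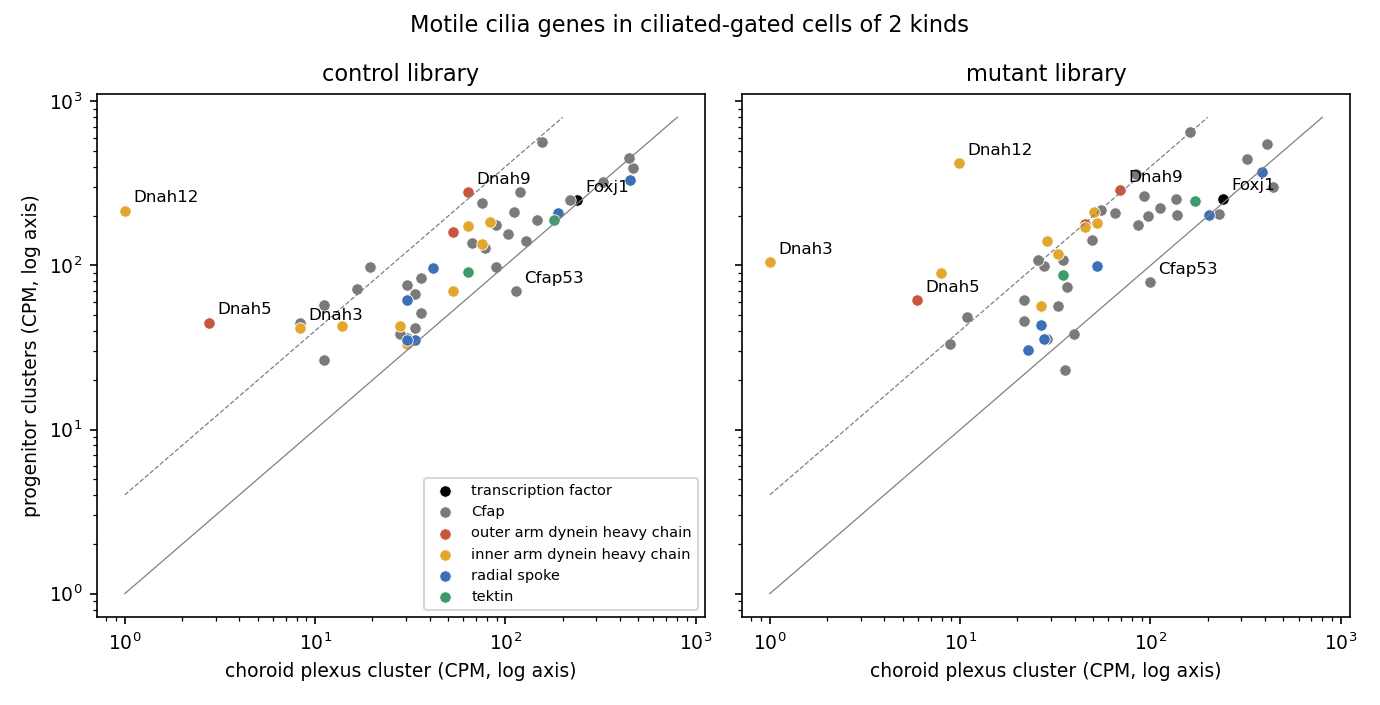
CPM of 49 motile cilia genes in ciliated-gated cells of the choroid plexus cluster (horizontal log axis) and of the progenitor clusters (vertical log axis), control library left and mutant library right, coloured by role. The solid line marks equality, the dashed line a 4-fold difference, and values under 1 CPM are drawn at 1; Foxj1 lies near equality in both panels, and Dnah12 had no UMI in the choroid plexus kind of the control library.

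Dnah12 was at 0 and 9.87 CPM in the choroid plexus kind and 216 and 422 CPM in the progenitor kind. Against a floor of 3 counts the control difference was at least 25.9-fold, and the mutant one was 42.7-fold. Dnah9 was at 63.9 and 69.1 CPM and 279 and 289 CPM, and Dnah5 at 2.78 and 5.92 CPM and 44.9 and 61.4 CPM. Dnah3 was at 8.33 and 0.987 CPM and 41.7 and 105 CPM, with 1 UMI behind the lowest of these values, as behind the lowest Dnah5 value. Other heavy chains did not pass in both libraries: Dnah1 was 1.08-fold and 2.11-fold higher in the progenitor kind, Dnah7a 1.54-fold and 3.61-fold, Dnah2 2.74-fold and 3.77-fold and Dnah11 3.02-fold and 3.94-fold. Cfap53, Rsph1 and Cfap126 lay below 1: they were 0.610-fold and 0.795-fold, 0.734-fold and 0.972-fold and 0.842-fold and 0.676-fold the choroid plexus level in the progenitor kind.

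Between genotypes, the summed level over all ciliated-gated cells was lower in the mutant library, with a ratio of 0.877 (0.851 to 0.904). The median log2 ratio was -0.27 for 49 members and -0.24 for all genes, and no member was 2-fold higher or lower, against 2.05% and 9.77%. Scaled without Ttr the ratio was 0.993. Scaled to all UMIs, the ratio took opposite directions within the kinds, 0.930 (0.880 to 0.983) in the choroid plexus cluster and 1.19 (1.145 to 1.24) in the progenitor clusters. Scaled without Ttr, that of the choroid plexus cluster was 0.985 (0.932 to 1.04), which includes 1, and that of the progenitor clusters stayed at 1.19. In the progenitor kind 36 of 45 members lay above 1, with a median log2 ratio of 0.21 against -0.03 for all genes. There Dnah10, Dnah3, Dnah7a and Dnah7c were 2-fold higher, against 1.48% of all genes, and none was lower, against 2.5%. In the choroid plexus kind none of 28 was 2-fold higher or lower, against 1.39% and 2.52%. The median log2 ratio there was -0.15, against -0.07 for all genes.

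Single genes likewise differed between the pooled group and the kinds. Dnah9 was at 212.5 and 131 CPM over all ciliated-gated cells, a ratio of 0.615 (0.508 to 0.742), but at 279 and 289 CPM in the progenitor kind. Dnah2 was at 139 and 81.6 CPM, a ratio of 0.5855 (0.460 to 0.7425), but at 175 and 171 CPM in the progenitor kind and 63.9 and 45.4 CPM in the choroid plexus kind. Tekt4 was at 80.5 and 49.0 CPM, a ratio of 0.608 (0.443 to 0.830), and at 90.8 and 86.95 CPM and 63.9 and 34.6 CPM in these kinds. Cfap45 was higher in the mutant library, at 114 and 155 CPM with a ratio of 1.36 (1.10 to 1.68), and Dnah1, an inner arm chain, was at 31.3 and 34.8 CPM. Rsph10b was at 51.4 and 31.2 CPM, a ratio of 0.607 (0.406 to 0.899), and at 62.0 and 43.5 CPM in the progenitor and 30.55 and 26.7 CPM in the choroid plexus kind. Cfap100 was at 55.2 and 32.65 CPM, a ratio of 0.592 (0.4004 to 0.867), and at 71.6 and 61.4 CPM and 16.7 and 21.7 CPM in these kinds, the last pair with the other direction.

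In choroid plexus epithelium the summed level had a ratio of 0.994 (0.964 to 1.03), which includes 1. The interval excluded 1 with no cell filter, at 1.04 (1.01 to 1.07), and with doublets kept, at 1.048 (1.02 to 1.08). None of 46 members was 2-fold higher or lower, against 2.08% and 1.03% of all genes. Foxj1 had a ratio of 0.940 (0.807 to 1.10). Single genes stayed inside 2-fold: Tekt4 was at 10 and 18.4 CPM, a ratio of 1.84 (1.18 to 2.98), and Cfap161 at 11.6 and 5.95 CPM, a ratio of 0.513 (0.3004 to 0.878). Dnah11 was at 38.0 and 49.8 CPM and Rsph9 at 128 and 109 CPM, ratios of 1.31 (1.03 to 1.67) and 0.849 (0.740 to 0.976). Cfap57 was at 5.601 and 8.735 CPM, Cfap46 at 23.6 and 19.5 CPM and Cfap65 at 19.6 and 16.2 CPM, with ratios of 1.56 (0.844 to 3.07), 0.827 (0.595 to 1.16) and 0.825 (0.575 to 1.20). In cell number the group was 0.882% of the control and 1.80% of the mutant library, and it held 6.44% and 11.4% of all UMIs of the set.

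Progenitors or astroglia, 2182 control and 1970 mutant cells, had a ratio of 0.944 (0.925 to 0.963), and of 0.8835 (0.862 to 0.9055) for the 46 enriched members. The cells behind these values differed: 45.8% of the control ones were in cluster 7, and 35.3% of the mutant ones were in cluster 12, a cluster named for the lesion. With types taken from named clusters the ratio for all members was 1.06, in the other direction. Lower at 2-fold were 4 of 51 members, Cfap299, Cfap70, Tekt2 and Tekt5, against 3.49% of all genes, and none was higher, against 3.04%. Cfap299 was at 13.2 and 5.49 CPM, a ratio of 0.415 (0.336 to 0.510), and Tekt5 at 3.95 and 1.885 CPM, a ratio of 0.478 (0.327 to 0.688). Foxj1 was at 16.2 and 14.5 CPM, a ratio of 0.894 (0.771 to 1.04), which includes 1.

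Progenitors with a Foxj1 UMI had more of the set. The 281 control and 239 mutant progenitor-gated cells with one had the enriched members other than Foxj1 at 1208 and 943.5 CPM. The 1901 and 1731 cells without one had them at 437 and 417 CPM. Median depth was 12025 and 11982 UMIs in the former and 10109 and 10879 in the latter. Granule cell precursors with a Foxj1 UMI, by contrast, had 278 and 269 CPM against 226 and 256 CPM without. The difference was not particular to progenitors: ungated cells had 1629 and 1741 CPM with a Foxj1 UMI against 251.5 and 320 CPM without. Lesion-gated cells had 494 against 317.5 CPM. Choroid plexus cells had 2005 and 2066 CPM against 2088 and 1591 CPM, the control pair in the other direction.

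Over all kept cells the set was higher in the mutant library, at 535 and 649 CPM, a ratio of 1.21 (1.20 to 1.22). In such whole-library values, more cells of a type and more RNA per cell cannot be told apart. Of 60 members 49 lay above 1, against 56.4% of all genes, and the median log2 ratio was 0.26 against 0.06. Past 2-fold higher were Cfap300, Dnah7b, Dnah7c and Tekt1, 4 members, against 7.04% of all genes, and past 2-fold lower was Dnah14, 1 member, against 3.8%, shares close to those of all genes. Without ciliated- and choroid plexus-gated cells the same genes passed, against 7.27% and 3.92% of all genes. Without the lesion-gated cells of the mutant library Tekt1 and Dnah14 passed, against 6.24% and 2.8% of all genes. Clusters 12, 14 and 15, all named for the lesion, held 2075, 1561 and 2063 mutant cells, together more than the 4200 lesion-gated ones. Values without lesion-gated cells, here and below, therefore still include cells of lesion clusters.

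**Figure D4:**
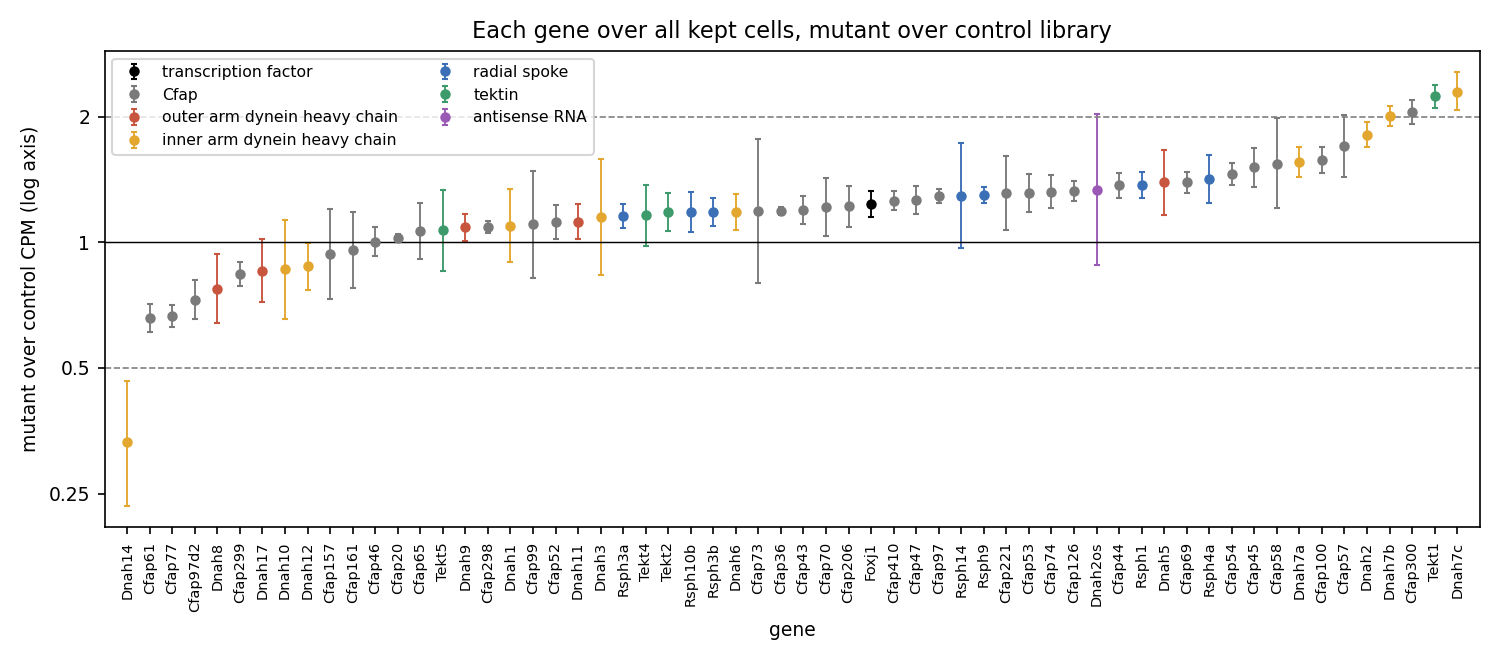
Mutant over control ratio of CPM over all kept cells (vertical log axis) for the 60 members with at least 50 UMIs, ordered by ratio and coloured by role, with exact conditional 95% intervals for counting error. Dnah14 is lowest at 0.333 and Dnah7c highest at 2.30.

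Tekt1 (chr11:72344722-72362442, minus strand) was at 8.29 CPM over all control cells and 18.6 CPM over all mutant cells, a ratio of 2.24 (2.10 to 2.38). It did not differ beyond counting error in ciliated-gated cells, at 180.4 and 192 CPM, in choroid plexus, at 80.8 and 78.6 CPM, or in progenitors, at 17.9 and 17.9 CPM. It did in ungated cells, at 6.84 and 20.4 CPM, in granule cell precursors, at 3.405 and 8.33 CPM, and in erythroid cells, at 0.893 and 3.46 CPM. The last pair, from 10 and 45 UMIs, comes from cells that should lack cilia, and the part of free RNA in the low values was not tested. Tekt1 was at 2.65 and 3.44 CPM in microglia, 3.49 and 2.97 CPM in endothelial cells and 2.57 and 2.51 CPM in pericytes. These pairs rest on at most 6 UMIs per library, with intervals that overlapped.

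Cfap300, a gene needed to assemble dynein arms (chr9:8021672-8042823, minus strand), was at 7.95 CPM over all control cells and 16.3 CPM over all mutant cells, a ratio of 2.05 (1.925 to 2.19). Its levels were 8.06 and 17.2 CPM in ungated cells, 14.0 and 19.4 CPM in progenitors and 39.5 and 39.0 CPM in ciliated-gated cells, and 2.41 and 2.85 CPM in erythroid cells. Dnah7b (chr1:46066315-46373546, plus strand), Dnah7c and Dnah7a are near copies of an inner arm chain whose reads may be split, so their sum is given. The sum was at 19.9 and 38.4 CPM, a ratio of 1.93 (1.85 to 2.01), and 1.705 (1.63 to 1.78) without lesion-gated cells. It was 41.1 and 52.4 CPM in progenitors, 13 and 21.8 CPM in granule cell precursors and 5.71 and 7.925 CPM in erythroid cells.

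Dnah14 was at 0.814 CPM over all control cells and 0.271 CPM over all mutant cells, a ratio of 0.333 (0.234 to 0.466) from 142 and 47 UMIs. Cfap61, Cfap77, Cfap97d2 and Dnah8 were the next lowest, with ratios of 0.659, 0.666, 0.728 and 0.7745. Cfap77 was not lower within granule cell precursors, at 33.9 and 38.9 CPM, of which the mutant library had fewer, 959 cells against 3454. Dnah2 was at 7.19 and 13.0 CPM, a ratio of 1.81 (1.69 to 1.94), and Foxj1 at 8.06 and 9.97 CPM, a ratio of 1.24 (1.15 to 1.33).

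Lesion-gated cells, found by markers such as Wif1, Notum and Axin2 that were listed with earlier results of these data known, numbered 4200 in the mutant library. Their summed level was 554 CPM, with Foxj1 at 1.97 CPM. Compared with control progenitors, 26 of 51 members were 2-fold lower, against 16.3% of all genes, and Dnah17 alone was higher, against 13.9%. Cfap126 was at 1.65 CPM against 15.95 CPM in control progenitors, Cfap45 at 0.8235 CPM against 4.95 CPM and Dnah11 at 1.52 CPM against 8.40 CPM. Not all members were low: Dnah7b was at 32.3 CPM against 27.8 CPM, Tekt1 at 20 CPM against 17.9 CPM and Cfap97 at 38.5 CPM against 21.9 CPM. Compared with control cells that were neither ciliated- nor choroid plexus-gated, Cfap300, Dnah2, Dnah7b, Dnah7c and Tekt1 were higher, 5 of 57 against 9.4%, and 17 were lower, against 16%. Genotype and cell type differ together in these comparisons and cannot be told apart. Within the mutant library, against its other cells outside the ciliated and choroid plexus groups, 20 of 57 members were lower and none higher, against 14.4% and 4.77%.

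Levels of 14 members, chosen after the lesion values were seen, were also read by the number of lesion markers detected per cell, after thinning to 3000 UMIs and without ciliated- and choroid plexus-gated cells. The markers are those of the lesion gate, so this describes the same cells in finer steps. Dnah7b was at 17.45 CPM (14.9 to 20.3) in mutant cells without a marker and at 37.1 CPM (33.2 to 41.3) in those with 5 or more. Cfap300 went from 9.69 to 25.1 CPM and Dnah2 from 10.00 to 20.1 CPM. Foxj1 and Cfap126 had the reverse order, 8.98 to 2.61 CPM and 10.1 to 2.15 CPM. Cfap54 was at 10.1 and 15.4 CPM and Cfap44 at 11.4 and 8.73 CPM at these ends. Tekt1 differed less along the count, from 15.4 to 18.9 CPM. In cells without a marker it was higher in the mutant library than in the control one, at 6.86 CPM (5.89 to 7.955). Dnah7b was also above its control level without a marker, 10.6 CPM (9.42 to 12.0). The same held for Foxj1, against 5.19 CPM (4.34 to 6.15), Cfap44, against 6.67 CPM, and Cfap126, against 6.745 CPM. For Cfap300, Dnah2 and Cfap54 the control values there were 7.84, 7.02 and 8.42 CPM, with intervals that overlapped the mutant ones. The libraries differed in their cell types, with 3454 control and 959 mutant granule cell precursors and 2465 and 477 differentiating granule neurons. Genotype and mix of cell types therefore cannot be told apart in cells without a marker.

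**Figure D5:**
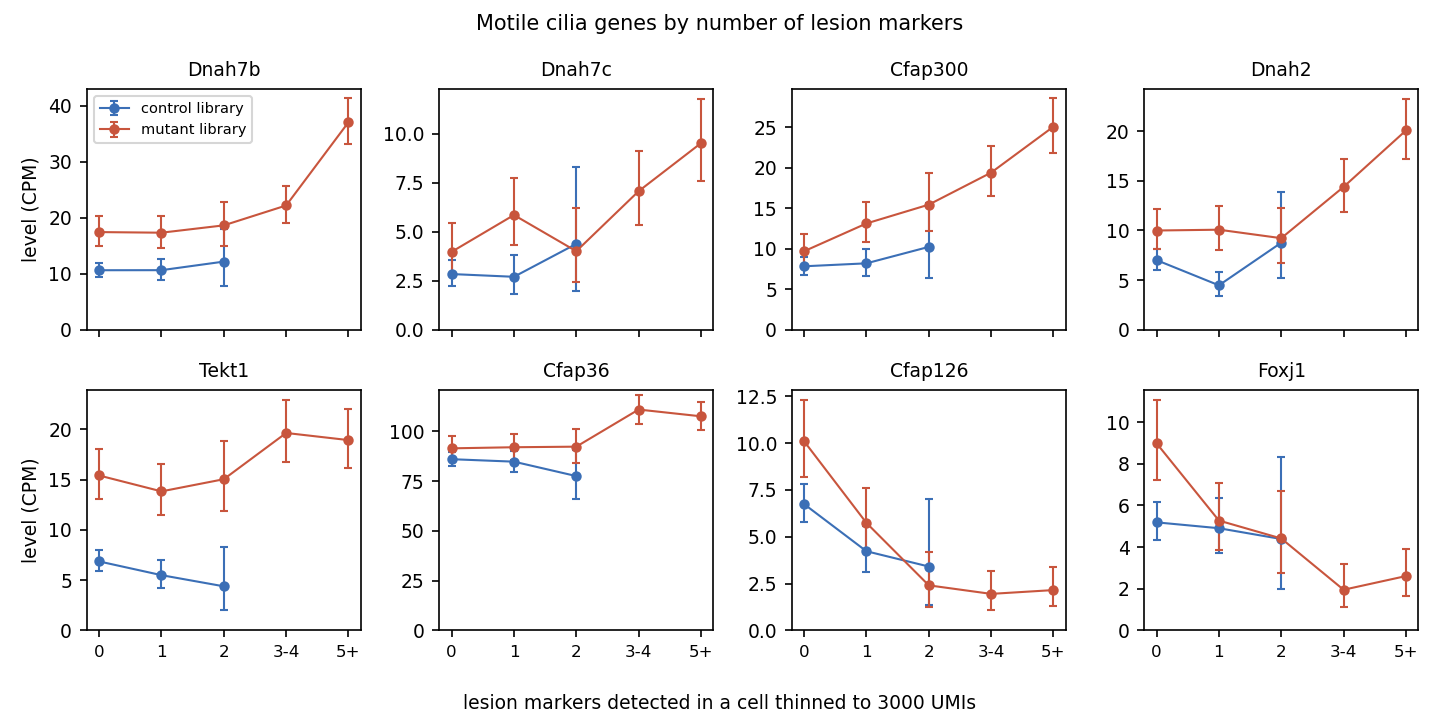
Level in CPM (vertical axes, scales differ) of 8 genes against the number of lesion markers detected per cell, each cell thinned to 3000 UMIs, for the control and the mutant library, with exact 95% Poisson intervals for counting error. Points with under 100 cells are left out. In mutant cells Dnah7b is at 17.45 CPM without a marker and 37.1 CPM with 5 or more, and Foxj1 at 8.98 and 2.61 CPM.

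In granule cell precursors the set was at 400.5 and 439 CPM. At 2-fold, Cfap44, Cfap54, Dnah7c, Rsph10b and Tekt1 were higher, 5 of 33 members, against 3.71% of all genes, and none lower, against 2.15%. Cfap44 was at 0.921 and 3.15 CPM, a ratio of 3.42 (2.18 to 5.36), beside 0.982 and 2.31 CPM in erythroid cells. Cfap54, a central pair gene, was at 1.95 and 4.35 CPM, beside 2.86 and 3.23 CPM. Both genes are thus at low levels in granule cell precursors, and the part of free RNA was not tested. In cells gated on cerebellar nuclei markers Cfap47, Dnah2, Dnah7a and Tekt1 were higher, 4 of 21, against 3.23%, and Dnah9 lower, against 2.09%. In ungated cells Cfap100, Cfap300 and Tekt1 were higher, 3 of 57, against 7.09%, and Dnah14 lower, against 3.34%. Oligodendrocyte precursors, 154 control and 72 mutant cells, had a summed level of 378 and 556.5 CPM, a ratio of 1.47 (1.29 to 1.68).

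Per cell, 14.1% of control and 19.85% of mutant cells had at least 3 different members at 3000 UMIs, leaving out 2384 and 2028 shallower cells, and without thinning 54.5% and 63.02%. In ciliated-gated cells the shares were 99.1% and 100%, with 11 and 9 different members in the median cell. Choroid plexus cells had 87.2% and 87.3%, progenitors 33.5% and 34.9% and lesion-gated cells 18.9%. Erythroid cells were at 2.38% and 1.72%, lowered by their haemoglobin, and microglia at 2.91% and 7.35%, from only 3 and 5 cells (0.605% to 8.28% and 2.43% to 16.3%). Their median depth was 17637 and 17544 and 9248 and 9546 UMIs.

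Genes that work with the set were read from lists by function. The gate selects cells rich in motile cilia genes, so enrichment of such lists there is a description, beside 4.71% of all genes. All 11 central pair and other spoke genes tested were at least 4-fold enriched in ciliated-gated cells of both libraries, as were 12 of 14 docking, nexin link and ruler genes, 9 of 13 dynein arm assembly factors and 8 of 15 ciliogenesis regulators. Genes shared with primary cilia mostly were not: 1 of 28 intraflagellar transport genes and 3 of 23 primary cilium genes passed. Of 8 dynein light and light-intermediate chains, which include axonemal and cytoplasmic ones, Dnali1 and Nme9 passed. Mcidas, which starts multiciliogenesis, was at 60.4 and 82.3 CPM in ciliated-gated cells, 117-fold and 205-fold above others. Between the whole libraries no gene of these lists was 2-fold higher, against 7.04% of all genes, and Foxn4 alone was 2-fold lower, against 3.8%, at 0.2925 and 0.121 CPM. The median log2 ratio was 0.33 for docking, nexin link and ruler genes and 0.33 for central pair and other spoke genes. It was 0.31 for primary cilium genes, 0.27 for intraflagellar transport genes and 0.24 for light and light-intermediate chains. These medians lie near the 0.26 of the set, against 0.06 for all genes. Assembly factors were at 0.06 and ciliogenesis regulators at -0.16. The X-box factor Rfx3 was at 172 and 309.9 CPM, a ratio of 1.80, and at 507 CPM in lesion-gated cells, against 231 CPM in control progenitors. In the latter comparison Rfx4 was at 115 against 301 CPM, Rfx2 at 8.365 against 14.4 CPM and Rfx1 at 5.40 against 5.08 CPM. Over the whole libraries the ratios of Rfx4, Rfx2 and Rfx1 were 1.32, 0.896 and 1.06. The central pair gene Spag6l was at 10.4 and 20.4 CPM, a ratio of 1.96.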

How the data were processed

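The deposited matrices hold raw UMI counts (whole numbers, a value for each gene in each barcode) which the authors made with Cell Ranger 7.0.1 on mm10, per the submitters' processing notes. Not given in the sources used here: intron use, strand, annotation release and cell calling. Per the labels' protocols, dissociated cells were sorted to remove dead ones, and 40000 cells per pool were loaded on a 10x 3' v3.1 kit.

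Barcodes with at least 1000 UMIs, 500 genes and at most 10% mitochondrial UMIs passed (16812 of 21457 control, 16482 of 21596 mutant), and Scrublet in scanpy 1.11.5 (expected rate 16%) removed 930 and 622 doublets (5.53% and 3.77%). A cell joined a type at a mean marker score of at least 0.3, 0.05 above the next type, with at least 3 markers detected. Erythroid cells had at least 50% haemoglobin. Leiden clustering (resolution 1, 2000 variable genes, 30 components, 15 neighbours) left out the 63 genes. UMIs were summed per library and cell type with numpy 2.4.6, scipy 1.17.1 and pandas 2.3.3. Sums carry exact Poisson, shares Clopper-Pearson and ratios conditional binomial intervals at 95%. A count of 0 was set to 3. The steps from sums to calls were tested on simulated counts. Coordinates are from GENCODE M21 (GRCm38), which held all 63 genes. No promoter entry was found for 13 members, namely Cfap65, Cfap157, Cfap299, Cfap73, Rsph10b, Dnah3, Cfap97, Rsph4a, Cfap54, Dnah2os, Foxj1, Rsph1 and Cfap53.

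The members, lists and markers were chosen with earlier results of these data known. Genes named were Foxj1, the 3 members per role with most UMIs (8 for Cfap), the 5 broad members with most UMIs, and the 5 largest ratios each way in the whole library, ciliated-gated and choroid plexus-gated cells. Others named were chosen after their values were seen. Alternatives changed the cell filter, doublets, scaling, gate, minimum, fold, thinning depth and members used.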

Additional observations from a re-analysis of the deposited data

Results flagged for a closer look

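The summed level of the 46 enriched members differed in opposite directions between the libraries in the 2 kinds of ciliated-gated cells. It had a ratio of 0.924 (0.872 to 0.980) in the choroid plexus kind, at 4352 and 4022 CPM. In the progenitor kind the ratio was 1.21 (1.16 to 1.27), at 6652 and 8078 CPM. Single members did not all follow: 8 of 25 tested lay above 1 in the choroid plexus kind, and 6 of 40 lay below 1 in the progenitor kind. This drew attention because the single library of each genotype went one way in the first kind and the other way in the second, and the difference between them was not tested. Scaled without Ttr the first ratio was 0.979 (0.923 to 1.04), an interval that includes 1, and the second stayed at 1.215 (1.16 to 1.27).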

How the results depend on the processing

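No paired analysis was possible because there was 1 library per genotype, and for the same reason no replicate could be left out. Over 98 alternative values of 14 results, 58 stayed within counting error or within 1.5 times the reported count, 38 moved and 2 reversed. The progenitor ratio reversed to 1.06 with named clusters, and the ciliated ratio to 1.19 with progenitor clusters only. No cluster was named ciliated, so named clusters gave no value for that group. The whole-library ratio was 1.19 (1.186) scaled without mitochondrial, ribosomal and haemoglobin genes, 1.194 without ciliated- and choroid plexus-gated cells and 1.28 without lesion-gated cells, where 1 member stayed 2-fold higher. At 1.5-fold, 10 members were higher and 3 lower. The ciliated ratio was 0.832 with no cell filter, 0.948 with the stricter gate, 0.993 scaled without Ttr and 0.930 in the choroid plexus cluster only. The choroid plexus ratio was 1.04 with no cell filter and 1.048 with doublets kept. The progenitor ratio was 0.965 with no cell filter, 0.967 with doublets kept, 0.981 with the stricter gate and 0.8835 for enriched members only. Shares of control and mutant cells with at least 3 members were 11.98% and 16.1% with no cell filter, 54.5% and 63.02% not thinned, 8.17% and 10.8% at 2000 UMIs, and 6.97% and 8.91% for enriched members only. For at least 2 members they were 33.01% and 42.6%, and for at least 5 they were 4.445% and 5.16%. In choroid plexus cells these shares were 98.6% and 98.25% not thinned, 72.1% and 75.9% at 2000 UMIs, 97.0% (96.99) and 93.45% for 2 members, 69.2% and 62.9% for 5, and 79.6% in the mutant library for enriched members only. The share of the choroid plexus kind per choroid plexus-gated cell had a ratio of 1.24. The cause of these shifts was not tested. Scaling without Ttr, the split into kinds and its denominators, the shares for enriched members only and the 2-fold count without lesion-gated cells were chosen after seeing the data. Counting error in the ciliated comparison comes from 122 and 114 cells.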
